A study of Mus musculus with 48 samples.

Results

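Ryanodine receptors (Ryr1, Ryr2 and Ryr3) and inositol trisphosphate (IP3) receptors (Itpr1, Itpr2 and Itpr3) are the 2 families of channels that let calcium out of the endoplasmic reticulum. Their probes were taken by gene symbol from the array's annotation, which gave 10 of the 25697 probes and 5 of the 6 genes. Ryr1 had 4 probes, Itpr2 had 3, and Ryr2, Ryr3 and Itpr3 had 1 each. No probe carried the symbol Itpr1, which is not analysed here. The samples came from BACHD-ΔN17 mice and from wild-type mice, all on the FvB/NJ strain, at 2, 7 and 11 months of age. BACHD-ΔN17 mice have a bacterial artificial chromosome with the mutant human huntingtin gene, whose protein lacks the N17 segment at its start. Such a transgene is read from human regulatory sequence and adds to the mouse's own huntingtin gene. Cortex and striatum of each of 24 mice were hybridised to separate arrays (48 in all), with 4 mice, 2 male and 2 female, in each of the 12 groups.

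A ryanodine receptor opens when calcium reaches it from the cytosol or, in skeletal muscle, when a voltage-gated calcium channel of the surface membrane touches it. An IP3 receptor opens when a surface receptor coupled to the G protein Gq has activated phospholipase C, which makes IP3. In neurons both families turn a brief calcium entry or a neurotransmitter signal into a larger calcium rise near the endoplasmic reticulum. Ryr1 is the main release channel of skeletal muscle, Ryr2 that of heart, and all 3 ryanodine receptors occur in brain. Itpr1 is the main IP3 receptor of neurons, Itpr2 is the one best known from astrocytes, and Itpr3 is best known from epithelial cells.

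In striatum, Ryr1 was lower in BACHD-ΔN17 than in wild-type mice at 7 and 11 months on 3 of its 4 probes, by 8.85-fold at 11 months on the probe with the largest difference. That fold includes 2 of 4 BACHD-ΔN17 arrays that did not detect the probe, and it was 3.15-fold on the authors' own values. Ryr3 was also lower at both ages, by a smaller amount, 1.67-fold at 11 months. Neither gene passed the test at 2 months or in cortex. Cortical Ryr1 was near the limit of detection, so a fall of striatal size could not be measured there. Its cortical difference at 11 months on that same Ryr1 probe was called without wild-type mouse 1 and with array quality weights. The Itpr2 probe that was detected on every array and the Itpr3 probe passed no test between the genotypes. The promoter windows of Ryr1, whose level differed most between the genotypes, and of Itpr2, which passed no such test, are shown as RefSeq gives them for build GRCm38.p6. Each runs from 250 bases before to 50 bases after the annotated start on the minus strand, Ryr1 at chr7:29125102-29125401 and Itpr2 at chr6:146502174-146502473, with every GC box in capitals (GGGCGG, or CCGCCC where it lies on the opposite strand).
Ryr1: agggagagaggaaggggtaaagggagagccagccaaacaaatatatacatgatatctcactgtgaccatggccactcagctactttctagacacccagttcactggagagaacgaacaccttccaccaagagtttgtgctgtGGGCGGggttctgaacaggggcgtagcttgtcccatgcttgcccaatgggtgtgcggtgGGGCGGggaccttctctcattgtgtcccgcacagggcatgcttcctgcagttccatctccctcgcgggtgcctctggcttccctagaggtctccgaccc
Itpr2: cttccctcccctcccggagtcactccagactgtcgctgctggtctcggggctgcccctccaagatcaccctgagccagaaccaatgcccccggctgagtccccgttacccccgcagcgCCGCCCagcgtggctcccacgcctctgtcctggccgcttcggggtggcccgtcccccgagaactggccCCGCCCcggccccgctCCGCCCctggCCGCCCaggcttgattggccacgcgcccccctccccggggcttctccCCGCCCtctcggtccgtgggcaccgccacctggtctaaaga

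The GC box, searched as GGGCGG on both strands, was present 2 times in the Ryr1 window, at positions 143 and 202 of the window on the gene's own strand. It was present 5 times in the Itpr2 window, at positions 119, 187, 203, 213 and 260, all on the opposite strand. Of 32851 promoter windows of the same length, 35.7% held at least 1 GC box. The TATA box TATAAA, which 13.6% of the windows held, was in neither. An E-box, searched as CANNTG, was in the Itpr2 window 1 time and not in that of Ryr1, against 72.3% of all windows. The cAMP response element TGACGTCA, in 1.79% of windows, was in neither. No such window was printed for Ryr3. Ryr1 lies at chr7:29003340-29125179, Ryr3 at chr2:112631354-113217405 and Itpr2 at chr6:146108299-146502258 of the same build. The annotated starts of the Ryr1 and Itpr2 windows do not coincide with the ends of these spans, so windows and spans rest on different starts. The positions of the probes within the genes are not given in the sources used here.

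Across the 48 arrays, 12477 to 14378 probes were detected, which means a signal above the negative control beads at a detection p under 0.05. Arrays of the same group correlated at 0.977 to 0.995. The 8 arrays with sample numbers 1 to 8 were dimmer than the other 40, with a 90th percentile of raw intensity of 1403 to 1679 against 1982 to 3009, and they lie in both genotypes and regions. They are 1 striatal array each of BACHD-ΔN17 mice at 2 and 11 months and of wild-type mice at 2 and 7 months, and 2 cortical arrays of each genotype at 11 months. Values without them are given where they change a call. The array's probe for mouse Htt does not show whether the human transgene is present. Its genotype differences ran from -0.10 to 0.21 on the log2 scale, none past the test in limma (adjusted p = 0.817 to 1). Whole tissue was measured, so fewer cells of a type and less RNA per cell cannot be told apart in any value below.

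All levels below are log2 intensities after background correction and quantile normalization. All differences are log2, BACHD-ΔN17 minus wild-type, from limma with the p adjusted over all probes tested in that region, and a call means an adjusted p under 0.05. A probe was tested in a region when it was detected there on at least 4 arrays. Of the 10 probes, 7 met this in striatum (the 4 of Ryr1 and 1 each of Ryr3, Itpr2 and Itpr3) and 6 in cortex, the same ones without Ryr1 probe ILMN_1220181. The detection floor, the lowest level of a detected probe, was 5.62 to 6.17 over the arrays.

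Ryr1 probe ILMN_2730425 was detected on 22 of the 24 striatal arrays. At 11 months its striatal levels were 5.91, 6.23, 5.55 and 6.81 in BACHD-ΔN17 mice, against 8.87, 9.10, 9.65 and 9.46 in wild-type mice. Every BACHD-ΔN17 striatum lay below every wild-type one, and 2 of the 4 BACHD-ΔN17 arrays (5.91 and 5.55) did not detect the probe. The raw intensities behind these levels were 231, 264, 227 and 330 in BACHD-ΔN17 striatum and 641, 879, 910 and 1079 in wild-type striatum. The difference was -3.15 (SE 0.22, 4 mice per genotype, limma adjusted p = 5.19e-11), an 8.85-fold lower level. On the authors' own log2 values, which have no background correction, the same difference was -1.66, so the size of the fold depends on that step.

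At 7 months the striatal levels of ILMN_2730425 were 7.38, 7.32, 7.41 and 7.02 in BACHD-ΔN17 mice, against 9.59, 9.72, 8.97 and 9.07 in wild-type mice. The groups did not overlap, and all 4 BACHD-ΔN17 arrays still detected the probe. The difference was -2.05 (SE 0.22, limma adjusted p = 2.91e-07), a 4.15-fold lower level. At 2 months the levels were 9.11, 9.17, 9.45 and 9.30 in BACHD-ΔN17 mice and 9.59, 9.41, 9.92 and 9.31 in wild-type mice. These ranges overlapped, and the difference of -0.30 (SE 0.22) was not called (limma adjusted p = 0.998).

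The second probe of Ryr1, ILMN_2733073, was detected on 23 of 24 striatal arrays. Its levels at 11 months were 6.50, 5.81, 5.19 and 5.98 in BACHD-ΔN17 striatum, against 8.64, 8.63, 9.28 and 8.81 in wild-type striatum. The 2 genotypes were apart by over 2 log2 units at their nearest arrays, and 1 BACHD-ΔN17 array (5.19) did not detect it. At 7 months it read 6.83, 7.16, 6.62 and 6.52 in BACHD-ΔN17 striatum, against 8.74, 9.24, 8.67 and 8.61 in wild-type striatum. Its differences were -2.97 (SE 0.23, limma adjusted p = 3.24e-10) at 11 months and -2.03 (SE 0.23, limma adjusted p = 6.36e-07) at 7 months. At 2 months the levels overlapped, at 8.72, 8.81, 9.09 and 8.53 in BACHD-ΔN17 striatum and 9.48, 8.94, 9.71 and 8.78 in wild-type striatum (difference -0.44, not called).

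Ryr1 probe ILMN_2842357 behaved likewise with smaller differences. At 11 months it read 5.33, 6.16, 5.86 and 6.51 in BACHD-ΔN17 striatum, against 8.29, 7.77, 8.53 and 7.67 in wild-type striatum. Again no BACHD-ΔN17 array reached the lowest wild-type one, and the array at 5.33 did not detect it. The 7-month levels were 6.38, 6.60, 6.40 and 6.64 in BACHD-ΔN17 striatum and 7.96, 8.41, 7.54 and 7.62 in wild-type striatum. The fitted differences were -2.10 (SE 0.25, limma adjusted p = 4.67e-07) at 11 months and -1.38 (SE 0.25, limma adjusted p = 0.000349) at 7 months. The remaining probe, ILMN_1220181, was detected on 8 of 24 striatal arrays, with group means at or under the detection floor, so it can show little of a lower level. Its differences were -0.06, -0.15 and -0.30 at 2, 7 and 11 months, none of them called, and no BACHD-ΔN17 array detected it at 11 months, against 2 of 4 wild-type arrays.

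**Figure D1:**
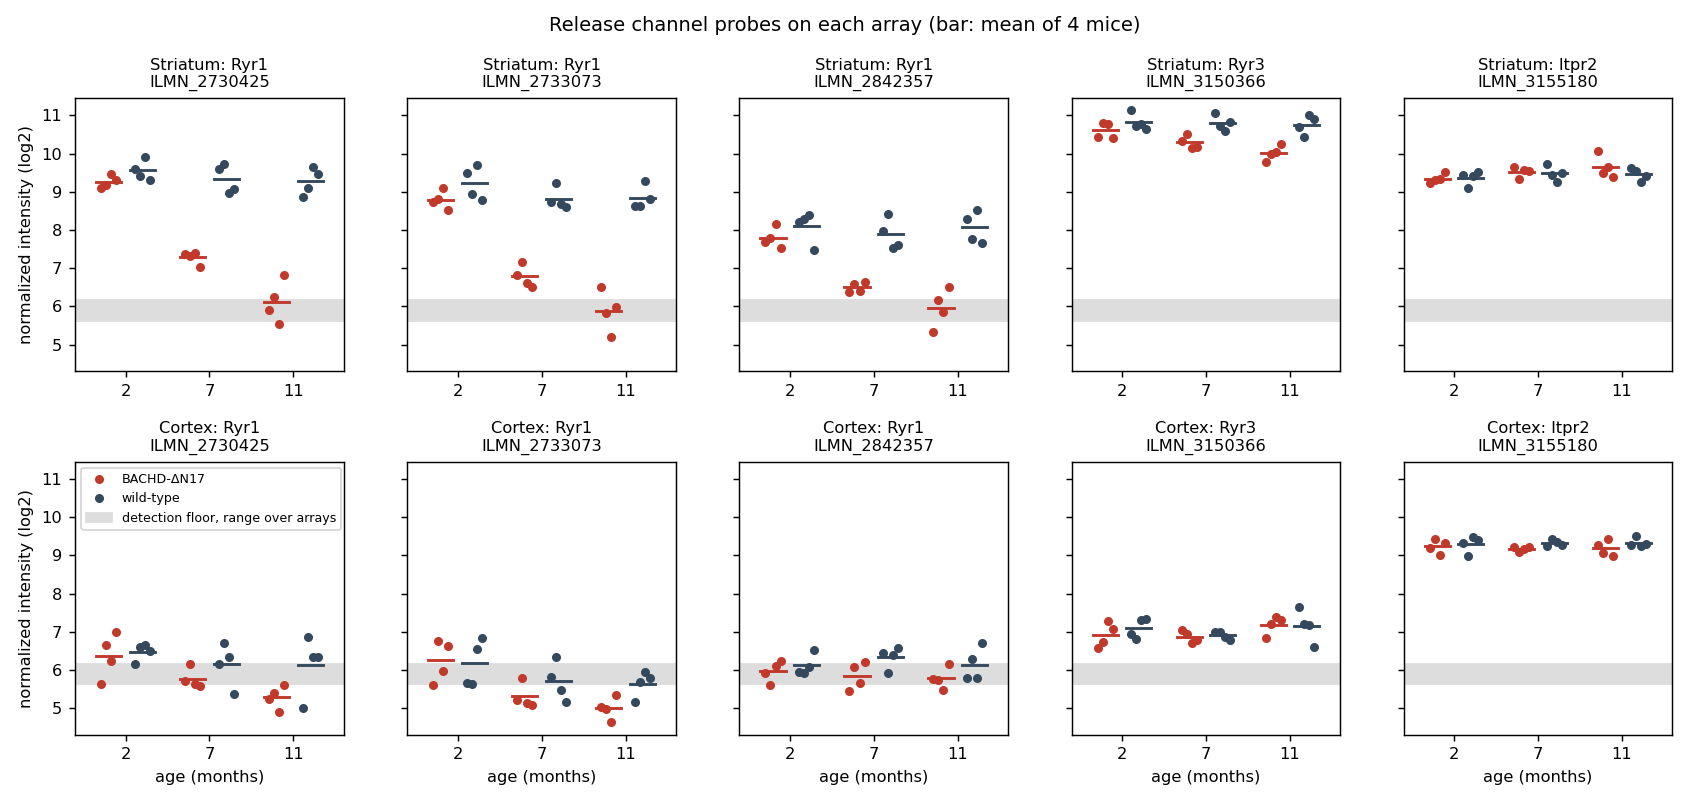
Normalized log2 intensity (vertical axis) of 3 Ryr1 probes, the Ryr3 probe and the detected Itpr2 probe in striatum (top row) and cortex (bottom row), by age, with 1 point per mouse, BACHD-ΔN17 to the left of wild-type at each age, group means as bars, and the grey band marking the detection floor of 5.62 to 6.17. In striatum the BACHD-ΔN17 points of the Ryr1 and Ryr3 probes lie below all wild-type points at 7 and 11 months, while the Itpr2 points overlap.

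Ryr3 is the ryanodine receptor found at lower levels in many tissues, brain among them. Its probe ILMN_3150366 was detected on all 48 arrays, so its values do not rest on the floor. At 11 months the striatal levels were 9.77, 9.98, 10.04 and 10.25 in BACHD-ΔN17 mice, against 10.69, 10.43, 11.00 and 10.89 in wild-type mice. The highest BACHD-ΔN17 mouse, at 10.25, lay under the lowest wild-type mouse, at 10.43. The difference was -0.74 (SE 0.14, limma adjusted p = 0.000292), a 1.67-fold lower level. At 7 months the levels were 10.34, 10.51, 10.16 and 10.16 in BACHD-ΔN17 striatum and 11.05, 10.73, 10.59 and 10.82 in wild-type striatum. These too did not overlap. The difference of -0.51 (SE 0.14, limma adjusted p = 0.0155) rested on few mice: it was not called without wild-type mouse 1 (-0.42, adjusted p = 0.0622), BACHD-ΔN17 mouse 3 (-0.46, adjusted p = 0.0699) or BACHD-ΔN17 mouse 4 (-0.46, adjusted p = 0.0582). It was also not called under scale normalization (-0.57, adjusted p = 0.0559). At 2 months the Ryr3 levels overlapped, at 10.43, 10.80, 10.79 and 10.41 in BACHD-ΔN17 striatum and 11.13, 10.73, 10.76 and 10.63 in wild-type striatum (difference -0.21, not called).

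Ryr2 could not be compared. Its probe was detected on 0 of 24 striatal and 3 of 24 cortical arrays, with levels of 4.84 to 5.39 in striatum and 4.98 to 6.55 in cortex that lie at or under the floor of nearly all arrays. This bounds the signal of that probe and not the level of the gene, since a probe can stay undetected where its gene is expressed. Itpr2 probe ILMN_1243385 was detected on no array, while ILMN_3155180 of the same gene was detected on every array.

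Over all members, 4 of the 7 striatal probes were lower in BACHD-ΔN17 mice at 7 months, where 6.54% of all tested probes were lower and 4.75% higher. The count at 11 months was again 4 of 7, against 9.1% of all probes lower and 7.51% higher. The members' median difference was -0.51 at 7 months and -0.74 at 11 months, against 0.01 and 0.02 over all probes. At 2 months limma called 0 of the 7, and 0 of them had an unadjusted p under 0.05, with 0.00654% of all probes called (1 of 15280). Averaged over the 3 ages, 4 of 7 were lower, against 10.7% of all probes. The 4 probes are those of 2 genes, and the 3 of Ryr1 share a gene, so they are not 4 separate results.

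The striatal difference widened with age for Ryr1. From 2 to 11 months it changed by -2.85 on ILMN_2730425 (SE 0.31, limma adjusted p = 9.51e-07), by -2.53 on ILMN_2733073 (limma adjusted p = 9.89e-06) and by -1.79 on ILMN_2842357 (limma adjusted p = 0.00157). These were 3 of 7 members, against 3.65% of all probes whose difference moved downward. The Ryr3 change of -0.54 was not called (limma adjusted p = 0.116). It was called with array quality weights (-0.70, adjusted p = 0.00764), without wild-type mouse 1 of 2 months (adjusted p = 0.0425) and without wild-type mouse 2 of 11 months (adjusted p = 0.0430).

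From 7 to 11 months the Ryr1 difference moved by a further -1.09, -0.93 and -0.72 on the 3 probes, in the order above. In limma 0 of the 7 members were called for this step, 3 had an unadjusted p under 0.05, and 0% of all probes were called (1016 with an unadjusted p under 0.05). The step on ILMN_2730425 was called with array quality weights (-1.27, adjusted p = 0.0454). In wild-type mice alone, the 11-month minus 2-month difference in striatum was -0.29 on ILMN_2730425 and -0.06 for Ryr3. Limma called 0 of 7 members there, with 0 at an unadjusted p under 0.05 and 0.124% of all probes called.

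**Figure D2:**
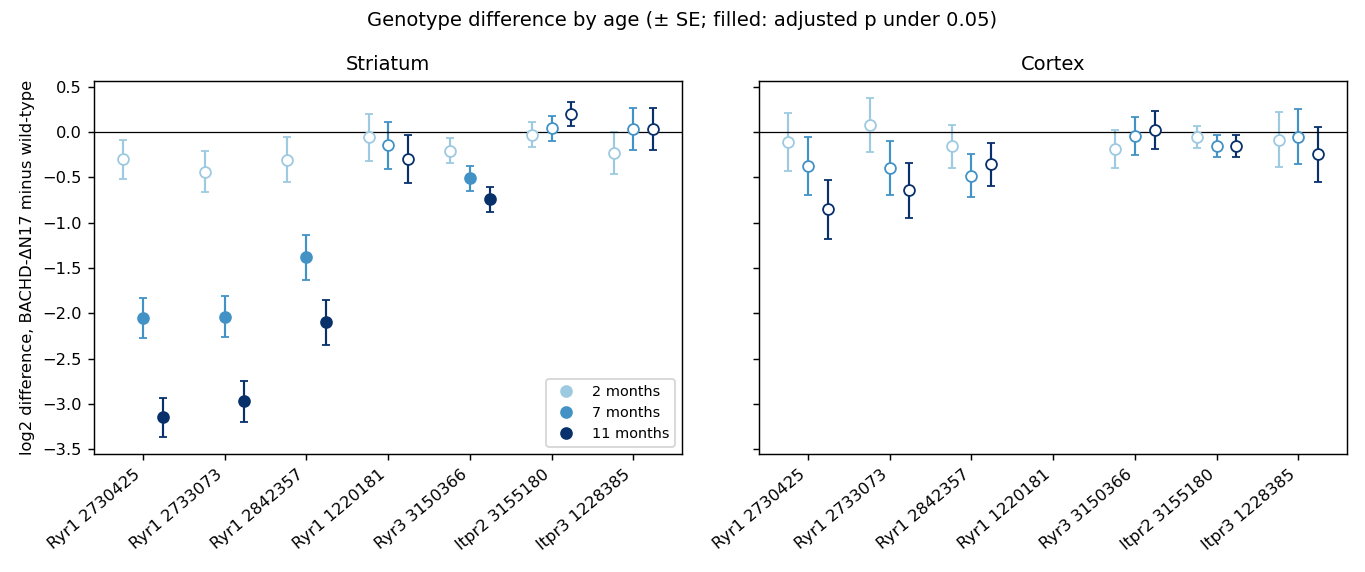
Log2 difference between BACHD-ΔN17 and wild-type mice (vertical axis, BACHD-ΔN17 minus wild-type, bars ± SE from limma) of the tested member probes (horizontal axis) in striatum and cortex, coloured by age in months, with filled points for an adjusted p under 0.05. In striatum 3 Ryr1 probes lie between -0.44 and -0.30 at 2 months and between -3.15 and -2.10 at 11 months, and no point is filled in cortex.

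In cortex Ryr1 was near the detection limit in both genotypes. Probe ILMN_2730425 was detected on 14 of 24 cortical arrays, ILMN_2733073 on 7 and ILMN_2842357 on 16. At 11 months the cortical levels of ILMN_2730425 were 5.25, 5.39, 4.91 and 5.60 in BACHD-ΔN17 mice, against 5.00, 6.85, 6.35 and 6.35 in wild-type mice. None of the BACHD-ΔN17 cortices detected it, while 3 of the 4 wild-type cortices did, and the array at 5.00 is the exception. The measured difference of -0.85 (SE 0.32) was not called (limma adjusted p = 0.0785), the groups overlapped, and the BACHD-ΔN17 levels are only an upper bound. Without wild-type mouse 1, the undetected and dim array, the difference was -1.28 and called (adjusted p = 0.00305), and it was called with array quality weights (-0.93, adjusted p = 0.0421).

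The other 2 Ryr1 probes had cortical differences of -0.64 (ILMN_2733073, undetected on all 8 arrays) and -0.35 (ILMN_2842357) at 11 months, neither called. At 7 months the 3 differences in cortex were -0.37, -0.40 and -0.48, and at 2 months -0.11, 0.08 and -0.15. Ryr3 in cortex lay between 6.58 and 7.65 on all 24 arrays, far below its striatal levels. At 11 months it read 6.84, 7.21, 7.39 and 7.30 in BACHD-ΔN17 cortex and 7.65, 7.21, 7.17 and 6.61 in wild-type cortex, with the wild-type mice on both sides of the BACHD-ΔN17 ones (difference 0.03, SE 0.21).

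Limma called 0 of the 6 cortical members at every age. At 2 months 0 had an unadjusted p under 0.05 and 0% of all probes were called, with 314 at an unadjusted p under 0.05. At 7 months 0 had such a p and 1.61% of all probes were called. At 11 months 2 of the 6, both Ryr1, had an unadjusted p under 0.05, while 14.8% of all probes were called (8.38% lower, 6.4% higher). The cortical members' median difference was -0.30 at 11 months, against 0.02 over all probes. Averaged over ages, 0 of 6 were called and 2 had an unadjusted p under 0.05, against 10.7% of all probes called. That average was called for ILMN_2730425 without wild-type mouse 1 of 11 months (adjusted p = 0.0133), without the dim arrays (adjusted p = 0.0497) and with array quality weights (adjusted p = 0.0498), and for ILMN_2842357 with the weights (adjusted p = 0.0473). For the change of the cortical difference from 2 to 11 months, limma called 0 of 6, with 0 at an unadjusted p under 0.05 and 3.46% of all probes called. For that from 7 to 11 months it called 0 of 6, again with 0 at such a p, against 0.113% of all probes. For age in wild-type cortex it called 0 of 6, with 0 at such a p and 0.02% of all probes called.

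Wild-type striatum held far more Ryr1 and Ryr3 signal than wild-type cortex of the same mice. Averaged over the 12 wild-type mice, striatum minus cortex was 3.13 (SE 0.13, limma adjusted p = 4.49e-15) for Ryr1 on ILMN_2730425, 3.12 on ILMN_2733073 and 1.82 on ILMN_2842357. For Ryr3 it was 3.73 (SE 0.10, limma adjusted p = 4.17e-18), a 13.3-fold higher level in striatum. On the authors' own values, without background correction, these differences were 1.71, 1.51 and 0.79 for the 3 Ryr1 probes and 2.61 for Ryr3 (6.10-fold), all called. The cortical Ryr1 levels behind these differences were at the detection floor on many arrays. ILMN_1220181 also passed (0.34, adjusted p = 0.0121), but not without the dim arrays (adjusted p = 0.0713) or with the mouse and the sets of 8 sample numbers as blocks (adjusted p = 0.0579). In all 5 of 7 members were higher in striatum, against 27.6% of all probes. Itpr2 (0.12, adjusted p = 0.109) and Itpr3 (-0.07) were not called.

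Ordered by mean level over the 12 groups, ILMN_2730425 was lowest in the 6 cortical groups and BACHD-ΔN17 striatum at 11 months (6.12 ± 0.54, SD, n = 4), which lay between 5.29 and 6.48 with neighbours that overlapped. BACHD-ΔN17 striatum at 7 months stood alone at 7.28 ± 0.18, above all of these and below all other groups. BACHD-ΔN17 striatum at 2 months (9.26 ± 0.15) and wild-type striatum at 2, 7 and 11 months (9.56 ± 0.27, 9.33 ± 0.37 and 9.27 ± 0.36) were the highest, and neighbours among them overlapped. The 4 BACHD-ΔN17 striata at 11 months lay within the range of the cortical arrays.

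For Ryr3 all 6 cortical groups were lowest, with means of 6.86 to 7.18. BACHD-ΔN17 striatum came next, at 10.61 ± 0.22, 10.29 ± 0.17 and 10.01 ± 0.20 at 2, 7 and 11 months, and wild-type striatum was highest, at 10.81 ± 0.22, 10.80 ± 0.19 and 10.75 ± 0.25 (SD, n = 4 each). Neighbours among the striatal groups overlapped. The lowest striatal array read 9.77 and the highest cortical one 7.65, so the Ryr3 levels of the 2 regions stayed apart on every array.

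The difference between regions was next compared within each mouse. For ILMN_2730425 at 11 months, striatum minus cortex was 0.65, 0.84, 0.64 and 1.21 in BACHD-ΔN17 mice, against 3.86, 2.24, 3.30 and 3.11 in wild-type mice. Every BACHD-ΔN17 mouse had a smaller step between its regions than any wild-type mouse. At 7 months the steps were 1.67, 1.16, 1.77 and 1.43 in BACHD-ΔN17 mice, against 3.43, 3.00, 2.64 and 3.69 in wild-type mice. At 2 months they overlapped, at 3.48, 2.52, 3.23 and 2.32 in BACHD-ΔN17 mice and 3.42, 2.80, 3.28 and 2.81 in wild-type mice.

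The genotype difference in striatum minus that in cortex was -2.30 at 11 months for ILMN_2730425 (SE 0.31, limma adjusted p = 0.000113), -2.33 for ILMN_2733073 (limma adjusted p = 6.1e-05) and -1.75 for ILMN_2842357 (limma adjusted p = 0.00978). These 3 of 7 compare with 2.09% of all probes. On the authors' own values they were -1.40, -1.17 and -0.78, all called. Wild-type cortical levels of Ryr1 lay near the detection floor, so a cortical fall as large as the striatal one could not be measured. The test rests on the dim arrays in part: without them only mice 2 and 4 of each genotype have both regions at 11 months, and the values were -1.51 (adjusted p = 0.165), -2.10 (adjusted p = 0.0563) and -0.66 (adjusted p = 0.824). ILMN_2842357 was also not called with only the 11-month mice in the fit (adjusted p = 0.117). At 7 months 2 of 7 passed, ILMN_2730425 (-1.68, adjusted p = 0.00574) and ILMN_2733073 (-1.64, adjusted p = 0.00461), against 0.678% of all probes, while ILMN_2842357 (-0.90, adjusted p = 0.404) did not. At 2 months limma called 0 of 7, with 0 at an unadjusted p under 0.05, against 0% of all probes (477 with an unadjusted p under 0.05).

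Within mice, the Ryr3 step from cortex to striatum at 11 months was 2.93, 2.78, 2.65 and 2.95 in BACHD-ΔN17 mice, against 3.04, 3.22, 3.84 and 4.29 in wild-type mice. The ranges did not overlap, but the difference of -0.77 (SE 0.24) was not called (limma adjusted p = 0.0780). It was called under several other settings, among them scale normalization (-1.03, adjusted p = 0.0217), the authors' own values (-0.65, adjusted p = 0.0088), and without wild-type mouse 1 (-0.97, adjusted p = 0.0333). At 7 months the steps of Ryr3 did not overlap either, at 3.30 to 3.57 in BACHD-ΔN17 mice and 3.73 to 4.07 in wild-type mice (-0.47, adjusted p = 0.530). Whether the Ryr3 effect differs between striatum and cortex therefore depends on the setting.

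**Figure D3:**
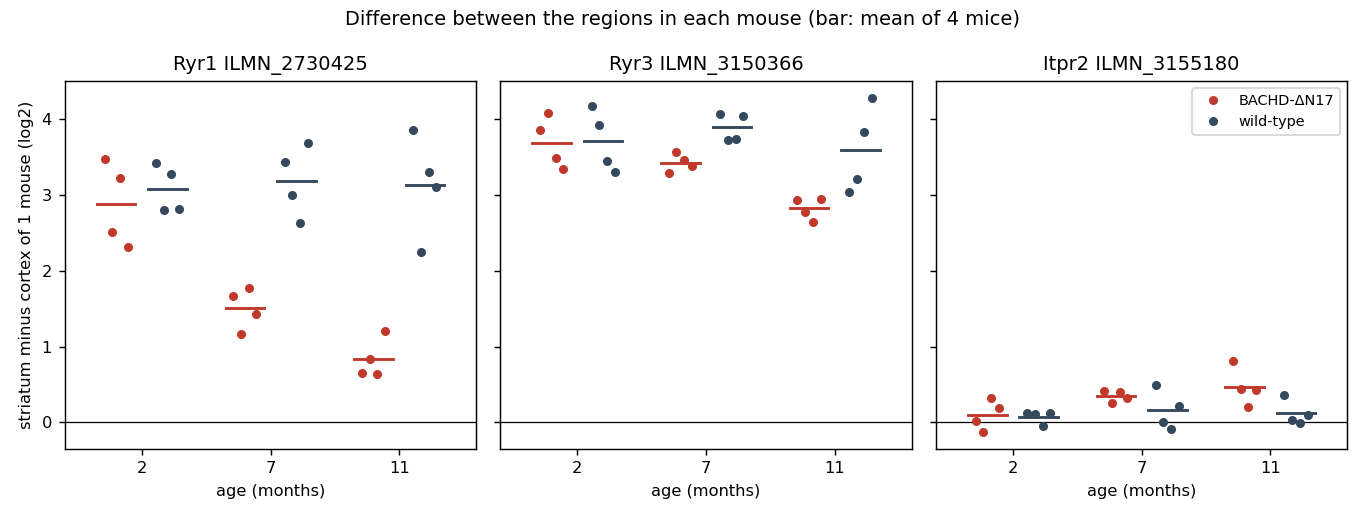
Striatum minus cortex of the same mouse on the log2 scale (vertical axis) by age in months for Ryr1 probe ILMN_2730425, Ryr3 and Itpr2, with 1 point per mouse, BACHD-ΔN17 to the left of wild-type, and group means as bars. For Ryr1 the BACHD-ΔN17 mice lie between 0.64 and 1.21 at 11 months, against 2.24 to 3.86 in wild-type mice, while the Itpr2 points at 11 months lie between 0.20 and 0.81 in BACHD-ΔN17 mice and between -0.01 and 0.36 in wild-type mice.

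Among the IP3 receptors, Itpr2 had 1 probe, ILMN_3155180, that was detected on all 48 arrays, while ILMN_1243385 was detected on none and ILMN_3076170 on 2 striatal arrays. At 11 months ILMN_3155180 read 10.08, 9.50, 9.64 and 9.40 in BACHD-ΔN17 striatum, against 9.63, 9.53, 9.25 and 9.40 in wild-type striatum. The groups overlapped, with the first BACHD-ΔN17 mouse highest. The difference was 0.20 (SE 0.14, limma adjusted p = 0.361), and it was 0.04 at 7 months and -0.03 at 2 months. In cortex at 11 months the Itpr2 levels were 9.26, 9.06, 9.44 and 8.97 in BACHD-ΔN17 mice and 9.28, 9.50, 9.26 and 9.30 in wild-type mice, which overlap (difference -0.15, SE 0.12). At 7 months the cortical groups did not overlap, at 9.23, 9.08, 9.17 and 9.23 in BACHD-ΔN17 mice and 9.24, 9.42, 9.35 and 9.28 in wild-type mice. That difference of -0.15 was not called (limma adjusted p = 0.817).

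Over the 12 groups, the mean level of ILMN_3155180 ran from 9.18 to 9.65, with neighbouring groups overlapping, so Itpr2 varied less than Ryr1 or Ryr3 across region, genotype and age. Its within-mouse region difference did not pass at 11 months either (0.35, adjusted p = 0.209). Itpr3 was detected on 8 striatal and 4 cortical arrays, just enough to be tested, at levels of 4.90 to 6.33 in striatum and 5.04 to 6.92 in cortex. Its striatal differences were -0.23, 0.03 and 0.03 at 2, 7 and 11 months, none of them called, and at such levels a difference may go unseen.

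Genes whose level followed a member most closely over the 12 group means were named by Pearson's r, as a description only, since the groups share mice and arrays. For Ryr1 on ILMN_2730425 these were Tlnrd1 (0.989), Zbtb8a (0.989), Cap1 (0.987), Usp28 (0.985) and Zmym3 (0.985). At 11 months their striatal differences were -1.15 for Tlnrd1, -1.08 for Zbtb8a, -0.62 for Cap1, -0.78 for Usp28 and -0.72 for Zmym3, all smaller than that of Ryr1. Cap1 regulates actin filaments and Usp28 removes ubiquitin from proteins. For Ryr3 the nearest were Gng7 (0.999), Rarb (0.997) and Necab2 (0.997), and striatal differences at 11 months were -0.89 for Gng7, -0.999 for Rarb and -0.72 for Necab2. Their wild-type striatum minus cortex differences were far larger, at 3.58, 4.36 and 3.43 in that order, and that of Ryr3 was 3.73. These r values therefore weigh the step between regions more than genotype or age. Gng7 is a G protein subunit enriched in striatal projection neurons, Rarb a retinoic acid receptor and Necab2 a neuronal calcium-binding protein. For Itpr2 they were Rida (0.954), Apoe (0.946) and Plekha2 (0.944). Apoe, a lipid carrier that astrocytes make, was higher in BACHD-ΔN17 striatum at 11 months (0.63), while the differences of Rida (0.20) and Plekha2 (0.30) were not called. For Itpr3 no gene came above 0.823 (Il12rb1), with Olfr503 at 0.785 and Cbs at 0.774.

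Markers of striatal projection neurons, the main neurons of the striatum, were set beside Ryr1 and Ryr3. Of 11 measured marker genes, 0, 9 and 10 fell in BACHD-ΔN17 striatum at 2, 7 and 11 months, from -0.04 for Adcy5, which was not called, to -1.87 for Scn4b, a sodium channel subunit, at 11 months. Their summed linear level at 11 months was 69400 to 76670 in BACHD-ΔN17 striatum and 124600 to 142100 in wild-type striatum. At 7 months it was 84830 to 95060 in BACHD-ΔN17 striatum and 133200 to 140500 in wild-type striatum. The markers' median difference at 11 months was -0.89, and 3 Ryr1 probes had differences of -2.10 to -3.15 and Ryr3 one of -0.74. Of 5 cholinergic neuron markers, 4 fell at 11 months, with a sum of 4364 to 4548 in BACHD-ΔN17 striatum and 5700 to 6007 in wild-type striatum. In cortex 2 and 4 of 10 tested projection neuron markers were lower at 7 and 11 months, against 1.15% and 8.38% of all probes. No Ryr1 or Ryr3 probe was called in cortex. The part of either cell type in the Ryr1 and Ryr3 results was not tested.

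Ryr1 is best known from skeletal muscle, so muscle markers were set beside it. Ckm, Tnnt3, Myh1 and Myh4, which define skeletal muscle, were detected on 0 of 24 striatal arrays. Of the other muscle markers, Actn3 was detected on 11 striatal arrays, Tnni2 and Myog on 6 each and Mylpf on 2. Acta1, skeletal muscle actin, was detected on all 24 and was lower in BACHD-ΔN17 striatum at 11 months (-0.53, limma adjusted p = 0.00400). The summed level of the 9 measured muscle markers at 11 months was 610.5 to 774.8 in BACHD-ΔN17 striatum and 759.7 to 921.8 in wild-type striatum. Of the heart muscle markers, Actc1 and Nppa were detected on 0 striatal arrays, Myh6 on 8, Myh7 on 2 and Tnni3 on 1. Choroid plexus markers, which come with tissue beside the ventricle, summed to 9603 to 29100 in BACHD-ΔN17 striatum and 4246 to 12340 in wild-type striatum at 11 months, and their part in the results was not tested.

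The rest of the calcium store pathway was read from 7 gene lists, with 1 probe per gene, and its counts at 11 months stand against the 9.1% of all striatal probes lower and 7.51% higher given above. Among pumps and lumenal proteins that fill and hold the store, 3 of 9 tested genes fell in BACHD-ΔN17 striatum at 11 months and 1 rose, with a median of -0.16. Sdf4, a lumenal calcium-binding protein (-0.51, SE 0.11), fell, as did Atp2a2, the pump that refills the store (-0.40, SE 0.08, named after its value was seen), and the counter-ion channel Tmem38a (-0.45, SE 0.10). Tmem38b, its relative, rose (0.47, SE 0.13), a call lost under scale normalization and without any 1 of 3 mice (BACHD-ΔN17 mice 1 and 3 and wild-type mouse 4). Among 32 regulators and partners of the release channels 3 fell and 6 rose, with a median of 0.03 against 0.02 over all probes. This balance depended on the setting: 6 fell and 1 rose under scale normalization, and 3 fell and 3 rose with the sets of 8 sample numbers in the fit. Homer1, which tethers glutamate receptors to IP3 and ryanodine receptors, fell (-1.02, SE 0.11), as did Jph4, a junctophilin that holds the store against the surface membrane in neurons (-0.82, SE 0.13). Bok, a protein that binds IP3 receptors, rose (0.99, SE 0.23), a call lost when the sets of 8 sample numbers entered the fit. A second, dimmer Bok probe was not called (0.40, limma adjusted p = 0.385).

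Upstream of the IP3 receptors, 1 of 14 genes of IP3 production fell and 3 rose. Gna15 (0.69), a Gq-class subunit, and the phospholipases Plcg2 (0.63) and Plcd4 (0.56) rose. Of the other Plcd4 probes, ILMN_3062126 was also called (0.79) and the dimmer ILMN_2734652 was not (0.08, limma adjusted p = 0.888). Each of the calls of Gna15, Plcg2 and the brightest Plcd4 probe was lost in some settings, and those of Gna15 and Plcg2 also without single mice. The median of that list was 0.07. Of 12 Gq-coupled receptors 3 fell, with a list median of -0.15. Tacr1, the substance P receptor (-1.51, SE 0.17), and the angiotensin receptor Agtr1a (-1.20, SE 0.19, detected on 2 of 4 BACHD-ΔN17 arrays) fell, and the muscarinic receptor Chrm3 (-0.75) fell with a call lost in many settings. Of 7 genes of IP3 removal 3 fell and 1 rose, with a median of -0.36. Itpka, the neuronal IP3 kinase, fell (-0.93, SE 0.09, limma adjusted p = 2.00e-08). The related kinase Itpkc rose (0.65, SE 0.14), a call that scale normalization removed, and Ippk, a kinase of a later inositol phosphate, fell (-0.51), a call lost with the sets of 8 in the fit.

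Of 19 genes of surface calcium entry 4 fell (median -0.06), led by the calcium channel subunits Cacna2d3 (-0.77, SE 0.11), Cacnb1 (-0.73, SE 0.22, lost without the dim arrays and without mouse 1 of either genotype) and Cacna1h (-0.35, SE 0.08, lost with the sets of 8). Of 18 genes of calcium removal, mitochondrial uptake and buffering 5 fell (median -0.05). They included the sodium-calcium exchanger Slc8a2 (-1.58, SE 0.17, limma adjusted p = 1.05e-07) and the surface pumps Atp2b1 (-0.88, SE 0.12) and Atp2b2 (-0.62, SE 0.10). None of the genes named from the lists had a striatal difference as large as that of Ryr1 at 11 months.

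In cortex at 11 months 8.38% of all probes were lower and 6.4% higher, and 0 of the 6 channel probes were called. Genes of the lists were called there as well. The counts were 1 of 10 lower for store pumps and lumenal proteins, 6 lower and 3 higher of 32 regulators, 3 of 12 lower for IP3 production, and 3 lower and 2 higher of 11 Gq-coupled receptors. For IP3 removal they were 1 lower and 1 higher of 6, for surface entry 5 of 19 lower, and for removal and buffers 4 lower and 1 higher of 18. The medians of the 7 lists in cortex, in that order, were -0.24, -0.04, -0.16, -0.26, 0.19, -0.12 and -0.11, against 0.02 over all probes. The gene that differed most in each of the lists was Tmem38a (-0.84), Jph4 (-0.65), the phospholipase C Plch2 (-0.66), the cholecystokinin receptor Cckbr (-1.26), Itpka (-0.87), the cation channel Trpc6 (-0.76, lost in some settings) and Slc8a2 (-0.97), in that order of lists. Tmem38a, Jph4, Itpka and Slc8a2 were lower in both regions of BACHD-ΔN17 mice at 11 months. Their genotype differences in striatum minus those in cortex were 0.39, -0.17, -0.06 and -0.61, with limma adjusted p = 0.130 to 0.893. The 3 Ryr1 probes that passed that test had cortical levels near the detection floor.

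**Figure D4:**
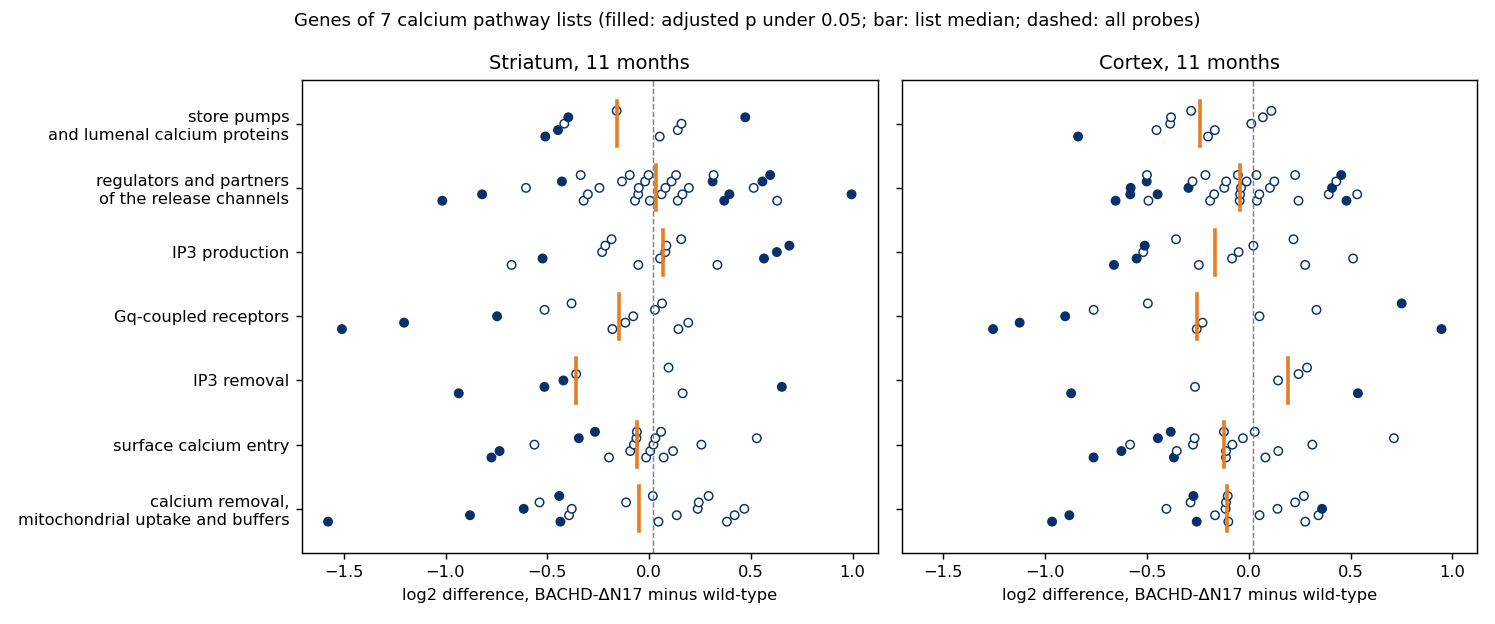
Log2 difference between BACHD-ΔN17 and wild-type mice at 11 months (BACHD-ΔN17 minus wild-type) for each gene of the 7 calcium pathway lists in striatum and cortex, with 1 point per gene, filled where the adjusted p was under 0.05, a bar at each list's median and a dashed line at the median of all probes (0.02). List medians lie between -0.36 and 0.07 in striatum, and single genes reach from -1.58 for Slc8a2 to 0.99 for Bok.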

How the data were processed

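Cortex and striatum of 24 mice were measured on 48 Illumina MouseRef-8 v2 arrays, with 100 ng of total RNA amplified and biotin-labelled per array, per the labels' protocols. The authors deposited 1 table with each probe's bead intensity, not normalized, and beside it a detection p-value, the chance of such a signal from negative control beads. A second deposited table holds the authors' log2 values. Compared with the intensities, these were quantile-normalized log2 intensities without background correction (largest difference 5e-09, median of every column 7.9435, lowest correlation of a column with its own array 0.9993). The scanner software is not given in the sources used here. All value columns were matched to samples by title, and 0 were left unused.

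Background correction and quantile normalization of all 48 arrays used the neqc function (limma 3.58.1, R 4.3.3) with an offset of 16. Probes stayed separate. Testing in a region required detection (p under 0.05) on 4 or more of its arrays, which kept 15280 probes in striatum, 15016 in cortex and 15789 for comparisons of the regions. In each region a limma model with 6 group means and sex was fitted to 24 arrays with moderated variances and a mean trend, and p-values were adjusted over all probes by Benjamini-Hochberg. The regions were compared as differences within each mouse, since striatum and cortex share a mouse per the labels. Same-mouse arrays deviated from their group means with a median correlation of 0.11 (-0.17 to 0.50). The median of -0.05 for other mice of a group follows in part from that centring and is no separate check of the pairing. The replicate numbers do not pair the genotypes. The platform annotation gave 1 symbol for 23978 probes and none for 1719.

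On simulated data made from these samples, the striatal 11-month test on 15280 probes recovered 17.9%, 76.1% and 100% of 67 probes each changed by 0.5, 1 and 2 log2 units, and the cortical test on 15016 probes recovered 32.8%, 76.1% and 100%. The simulated noise was drawn separately for each probe and array, with no detection floor. A far smaller share of probes was changed than the 16.6% called in striatum at 11 months. Recovery in the real data, and for probes near the floor, may therefore differ. The number of arrays limits the precision. No label states the litters. The mouse names in the labels carry prefixes, which may or may not mark litters. At both younger ages some prefixes occurred in both genotypes. At 11 months no prefix was shared between the genotypes, so genotype and prefix cannot be told apart there. The models treated mice as independent. The part of the prefix in the 11-month differences, and in the changes up to that age, was not tested. The members, the gene lists and the marker lists were chosen with earlier results of these data known. All member probes are named. From each pathway list the text names the called genes with the largest differences, up to 3 in striatum and 1 in cortex. Atp2a2 is an exception to this rule, named after its value was seen. For likeness it names the 5 genes nearest Ryr1 and the 3 nearest each other member. Levels of a list use the probe with the highest mean for each gene. The alternatives were other normalizations, offsets, filters, models, blocks and array weights, the authors' values, sets of sample numbers, and leaving out each mouse.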

Additional observations from a re-analysis of the deposited data

Results flagged for a closer look

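The Ryr1 difference between BACHD-ΔN17 and wild-type striatum changed with age by a test of the change itself, by -2.85 on ILMN_2730425, -2.53 on ILMN_2733073 and -1.79 on ILMN_2842357 from 2 to 11 months (log2, limma adjusted p = 9.51e-07, 9.89e-06 and 0.00157). It also differed between striatum and cortex of the same mice. The striatal minus the cortical difference was -1.68 on ILMN_2730425 and -1.64 on ILMN_2733073 at 7 months. At 11 months it was -2.30, -2.33 and -1.75 on the same 2 probes and ILMN_2842357. Cortical Ryr1 lay near the detection floor in both genotypes, so a cortical fall of striatal size could not be measured. Without the dim arrays only mice 2 and 4 of each genotype had both regions at 11 months. The differences were then -1.51, -2.10 and -0.66, none of them called (limma adjusted p = 0.165, 0.0563 and 0.824).

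Of 120 groups of 4 arrays, 2 held 1 array far from the others, where chance gives about 6. Ryr1 probe ILMN_1220181 read 5.60 in the cortex of BACHD-ΔN17 mouse 3 at 7 months, with the next array at 5.20. Ryr2 read 5.09 in the cortex of wild-type mouse 3 at 11 months, with the next array at 5.49. Neither array detected the probe.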

How the results depend on the processing

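Over 119 member results and 3273 values from 20 alternatives and from leaving out each of 24 mice, 3246 kept their side of the threshold, 10 calls were lost and 17 gained. The sign turned in 0 called results and in 186 values that were called neither before nor after. With 1 probe per gene, each gene kept only its probe with the highest mean, so fewer member probes were tested. The members called in striatum were then 2 at 7 months, 2 at 11 months and 2 averaged over ages, Ryr1 and Ryr3 each time. For the change from 2 to 11 months 1 was called (Ryr1), and between regions in wild-type mice 2 (Ryr1 and Ryr3). The regional difference of the genotypes had 1 each at 7 and 11 months (Ryr1). Array quality weights gave 1 in cortex at 11 months, 2 averaged over ages in cortex and 1 from 7 to 11 months in striatum. Without the 8 dim arrays 1 was called averaged over ages in cortex and 0 for the regional difference at 11 months. Leaving out 1 mouse gave 0 to 1 in cortex at 11 months, 0 to 1 averaged over ages in cortex, 3 to 4 in striatum at 7 months, 3 to 4 from 2 to 11 months and 3 to 4 for the regional difference at 11 months. With no replicate block for the mouse, the paired comparison of regions called 5 members in wild-type mice and 0, 2 and 3 at 2, 7 and 11 months, and with the mouse as a random block 5, 0, 2 and 4.

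Counts over all probes moved further: 1725 calls in striatum at 7 months ranged over 868 to 3189, 2539 at 11 months over 1695 to 3870, and 863 from 2 to 11 months over 461 to 1553. In cortex 242 calls at 7 months ranged over 21 to 684, 2219 at 11 months over 353 to 2805, 519 from 2 to 11 months over 101 to 824 and 1602 averaged over ages over 380 to 2277. The regional difference ranged over 83 to 359 around 200 at 7 months and over 47 to 953 around 634 at 11 months. Scale normalization shifted the median of all probes to -0.15 in striatum at 11 months, against 0.02. It put 85.2% of calls on the lower side there against 54.8%, 67.9% against 57.9% at 7 months, 76.6% against 53.6% averaged over ages and 85.3% against 64.7% from 2 to 11 months. In cortex it put 71.5% against 56.7% at 11 months and 71.1% against 59.2% averaged over ages, and for the regional difference at 11 months 71% against 52.1%. Under it the Ryr1 differences in striatum at 11 months were -3.18, -3.07 and -2.11 and that of Ryr3 -0.96. On the authors' log2 values those of Ryr1 were -1.66, -1.42 and -0.89, all called. Sample numbers 33 to 48 alone could not be fitted for some comparisons. The sets of 8 sample numbers may or may not be slides, which the labels do not state. The cause of each lost or gained call was not tested. Detection limits Ryr2, Itpr3, Ryr1 in cortex and 2 of the 3 Itpr2 probes.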
